A study of Drosophila melanogaster with 6 samples.

Results

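The Enhancer of split complex, written E(spl), is a cluster of small genes that the Notch pathway switches on directly. Its genes fall into a set of basic helix-loop-helix (bHLH) repressors, a set of Bearded-family genes, and Kaz-m1, a gene of another kind at the m1 position. The 10 members described here are the complex's genes found by symbol among the 6156 genes of the authors' deposited comparison table. There are 6 bHLH repressor genes (mgamma, mbeta, m3, m5, m7 and m8), 3 Bearded-family genes (malpha, m2 and m6) and Kaz-m1. The gene titles in the table give the same classes. The reference annotation holds 12 protein-coding genes in the complex, and the other two, a repressor gene (E(spl)mdelta-HLH) and a Bearded-family gene (E(spl)m4-BFM), have no row there, so they were not called or not tested.

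The tissue is given as the Drosophila salivary gland imaginal ring, a band of diploid progenitor cells where the duct meets the secretory gland. By the markers given below, control libraries held far more transcript of salivary secretory and fat body cells than of imaginal progenitors. The fold changes thus compare tumor with a mixed control, not with ring progenitors alone. RNA was sequenced from 3 control samples of genotype Actts>GFP, labelled as larvae of the third instar, and from 3 tumor samples of genotype Actts>GFP+NICD, labelled 7 days at 18 °C and then 7 days at 29 °C. Both groups thus carried the ubiquitous actin driver with GFP under temperature-sensitive Gal80 (the ts of the label), and tumors also expressed NICD, the intracellular domain of Notch. No temperature schedule is given for controls, so genotype, temperature and age cannot be told apart, and because the driver is ubiquitous NICD was not limited to the ring.

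When Notch is cleaved, its intracellular domain enters the nucleus, joins the DNA-binding protein Su(H) and the coactivator Mastermind, and turns on target genes, of which the E(spl) genes are the best known. The bHLH repressors bind DNA, recruit the corepressor Groucho and silence proneural and other differentiation genes, which holds cells in an undifferentiated state. Bearded-family proteins act on the other side of the signal: they bind and inhibit Neuralized, the ubiquitin ligase that makes the ligand Delta active. In imaginal tissue and in neural stem cells, E(spl) transcripts are widely used as a readout of Notch activity.

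All values come from a table in which the authors compared the groups, without a value per sample. Agreement among the 3 samples of a group, the depth per library and any SD are therefore unknown, and the labels do not say whether samples came from separate animals, so a p-value here may reflect technical spread only. The table's layout is that of a test against a minimum fold, so an adjusted p below 0.05 may mean a difference beyond 1.2-fold rather than any difference. A positive log2 fold change means higher in tumor. CPM is counts per 1000000 reads, and a level in a single group is an estimate made from the table's mean CPM and fold change. Over the listed genes the control estimates sum to 1224976, above 1000000. The levels are therefore not true CPM of either group, and their absolute size depends on an unknown scaling or on how far the estimate holds.

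All 10 members rose, although mgamma rose less than the median marker of the progenitor cells. Of the 9 members with a level above 0 in control, 7 lay above every one of the 6 progenitor markers. The median of the 6 listed hemocyte markers (5.403, range 3.10 to 6.16, by the authors' deposited table) also lay above all progenitor markers. Medians of the other marker lists given below did not. What a change in cell mixture adds to the members' rise was not tested. Being in the table means having an adjusted p below 0.05, so the fairer count is over the whole complex: 10 of its 12 protein-coding genes were called higher and none lower in the authors' deposited table. Of the 9384 tested genes 65.6% were called in either direction and 34.0% were called higher. All 10 members also passed an adjusted p of 0.01, against 26.2% of tested genes called higher. The 9 members with a fold were at least 2-fold higher, against 26.7% of tested genes. That last share is a plain limit on the fold, while the authors' own calls under the heading of 2 number 1845 higher, and which genes those are is not given in the table. Across the 9 members with a level above 0 in control, the median log2 fold change in the authors' deposited table was 4.68, against 0.57 over all listed genes.

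The bHLH repressor genes spanned the widest range. E(spl)m3-HLH had an estimated level of 4.21 CPM in control and 240.7 CPM in tumor, a log2 fold change of 5.84 (adjusted p = 7.82e-06) in the authors' deposited table. The next, E(spl)mbeta-HLH, a repressor used broadly in imaginal discs, went from 7.90 to 322.5 CPM, a log2 fold change of 5.35 with the smallest adjusted p of the members (5.92e-06) in the authors' deposited table. These genes had the largest fold changes among the listed repressors and, per kb of transcript, also the highest levels in tumor.

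A middle pair followed. E(spl)m7-HLH was estimated at 1.92 CPM in control and 48.9 CPM in tumor (log2 fold change 4.67, adjusted p = 5.14e-05 in the authors' deposited table). E(spl)m8-HLH, the repressor altered in the dominant mutation that gave the complex its name, was estimated at 2.16 and 34.5 CPM (log2 fold change 3.996, adjusted p = 0.0081 in the authors' deposited table). The fold was lower in m8 (16.0-fold) than in m7 (25.4-fold), as was the tumor level. The unadjusted p of m8 (0.0041) was 1161 times that of m7 (3.49e-06) in the authors' deposited table. By p, m8 ranked 4710 of the 6156 listed genes, the weakest statistical support of any member, and the values per sample that would show why were not analysed here.

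The lowest rises were those of m5 and mgamma. E(spl)m5-HLH was scarce in both groups, at 0.191 CPM in control and 1.36 CPM in tumor (log2 fold change 2.83, adjusted p = 0.0057 in the authors' deposited table). E(spl)mgamma-HLH, a repressor prominent in neural stem cells, was estimated at 2.91 CPM in control and 11.9 CPM in tumor (log2 fold change 2.03, adjusted p = 0.00060 in the authors' deposited table). Per kb its control level was above those of m7 and m8, and its tumor level below both. It had the smallest log2 fold change of all members, with 21.2% of the listed genes above it, against 2.24% above m3.

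**Figure D1:**
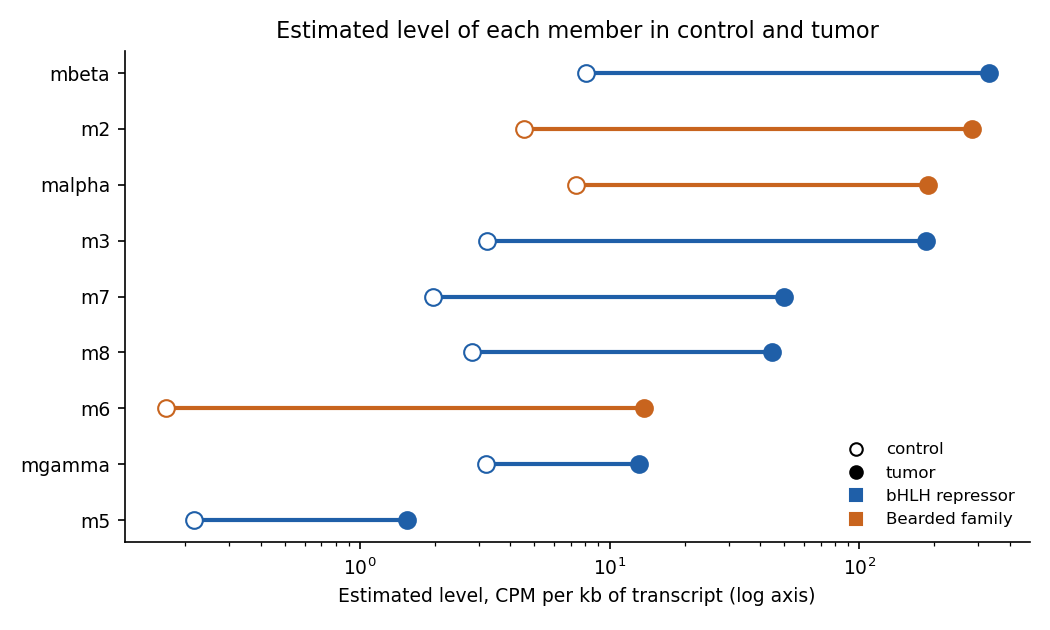
Estimated level of 9 members in control (open) and tumor (filled), in CPM per kb of median annotated transcript length on a log axis, bHLH repressors in blue and Bearded-family genes in orange. Each line joins a gene's 2 estimates, with no error bars because the table holds no value per sample; mgamma, at 3.19 in control and 13.1 in tumor, has the shortest line. Kaz-m1 is left out because its control level is fitted at 0.

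The Bearded-family members rose as well, and all 3 had larger log2 fold changes than 4 of the 6 repressors. E(spl)m6-BFM had the largest rise of any member with a control level above 0, from an estimated 0.190 CPM in control to 15.6 CPM in tumor (log2 fold change 6.36, adjusted p = 0.00057 in the authors' deposited table). E(spl)m2-BFM rose from 4.36 to 271.8 CPM (log2 fold change 5.96, adjusted p = 1.38e-05 in the authors' deposited table), and per kb it was second only to mbeta in tumor. E(spl)malpha-BFM rose from 4.98 to 127.3 CPM (log2 fold change 4.68, adjusted p = 4.7e-05 in the authors' deposited table). Per kb, m6 started from the lowest control level of the 9 members above 0 and malpha from the highest but one.

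Kaz-m1 encodes a Kazal-type protease inhibitor and is neither a bHLH nor a Bearded gene, although it sits between malpha and m2. It was fitted at 0 in control and had a mean of 0.684 CPM over all libraries (adjusted p = 0.0018 in the authors' deposited table), so no fold is given. Its level is uncertain for another reason too: in the annotation used here 57.0% of its exon bases are shared with a noncoding gene on the same strand, lncRNA:CR45040, and how the authors counted such reads is not given in the sources used here. None of the other members shares exon bases with another annotated gene of the complex or its neighbours.

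Set side by side, the classes differed in their middle but overlapped. The median log2 fold change was 4.33 for the 6 bHLH genes (2.03 to 5.84) and 5.96 for the 3 Bearded-family genes (4.68 to 6.36), by the authors' deposited table. Both m3 and mbeta lay above malpha, and no test was made, since genes of a class are not replicates. The gap was smaller among abundant transcripts. Among members above the lower quartile of mean level (3.06 log2 CPM), namely mbeta, m3, m7, m8, malpha and m2, the medians of the authors' deposited values were 5.01 and 5.32. This filter removed m5 and mgamma, the repressors with the smallest rises, and m6, the Bearded gene with the largest.

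**Figure D2:**
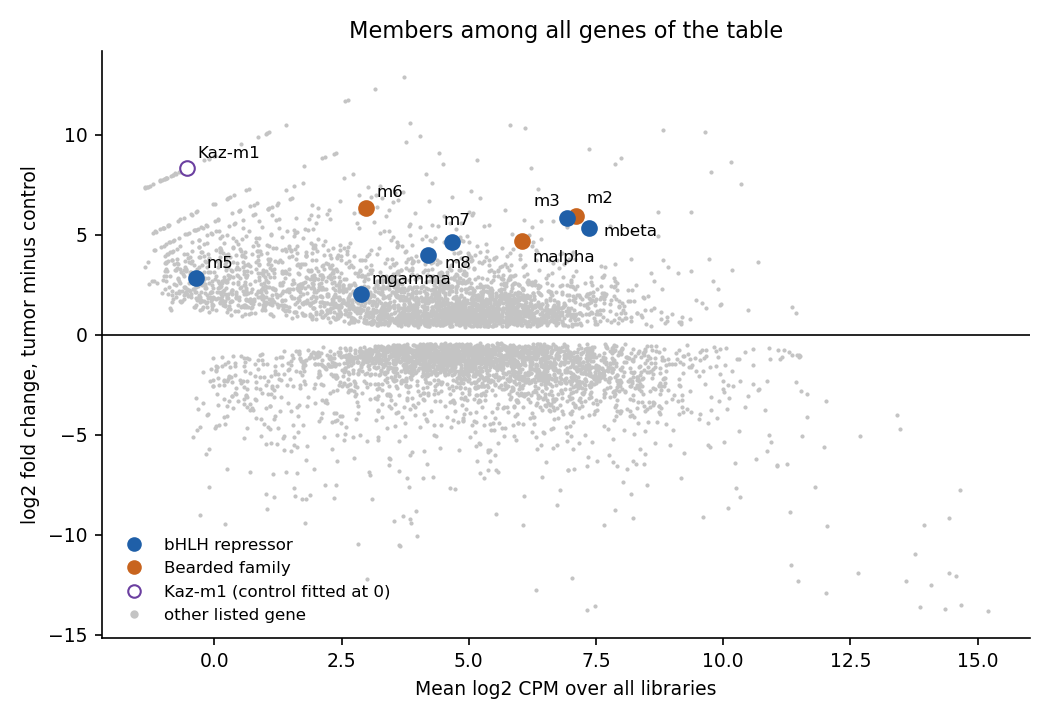
Log2 fold change (tumor minus control) against mean log2 CPM for the 6156 genes of the authors' deposited table (grey), with bHLH repressors in blue, Bearded-family genes in orange and Kaz-m1 as an open circle because its control level is fitted at 0. The members span mean levels from -0.55 (Kaz-m1) to 7.37 (mbeta) log2 CPM, and m2, m3 and mbeta lie close together at high level and high fold change.

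The summed level of the listed genes of each class was also higher in tumor. Because mdelta and m4 have no level here, all class sums, ratios, shares and places leave them out. Summed per kb of transcript, the estimated bHLH level was 19.5 in control and 623.5 in tumor, 32.0-fold higher, and the Bearded level was 12.1 and 486.1, 40.2-fold higher. These sums mostly reflect mbeta and m3 among the repressors and malpha and m2 among the Bearded genes. The ratio of repressor to Bearded transcripts was 1.61 in control and 1.28 in tumor. No error can be put on these ratios, so whether the shift exceeds the spread between samples is not known.

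Within the listed repressors, the mixture of transcripts became more concentrated. Per kb, mbeta made up 41.5% of the summed bHLH level in control and 52.9% in tumor, and m3 made up 16.6% and 29.6%. Together these genes went from 58.0% to 82.5%. The share of mgamma went the other way, from 16.4% to 2.10%, which took it from place 3 to place 5 among the 6 repressors. The shares of m8 (14.4% and 7.20%) and m7 (10.05% and 7.99%) were also smaller in tumor, and m5 stayed last (1.11% and 0.248%). These shares assume that the table's mean CPM and fold rest on the same scaling. With the fold shifted to equal sums, or by the progenitor median, and the mean CPM kept, mbeta and m3 together made up 56.3% or 64.2% in control and 82.0% or 84.5% in tumor. The share of mgamma became 18.2% or 10.6% in control and 2.39% or 1.26% in tumor, and its place in control became 2 or 4.

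**Figure D3:**
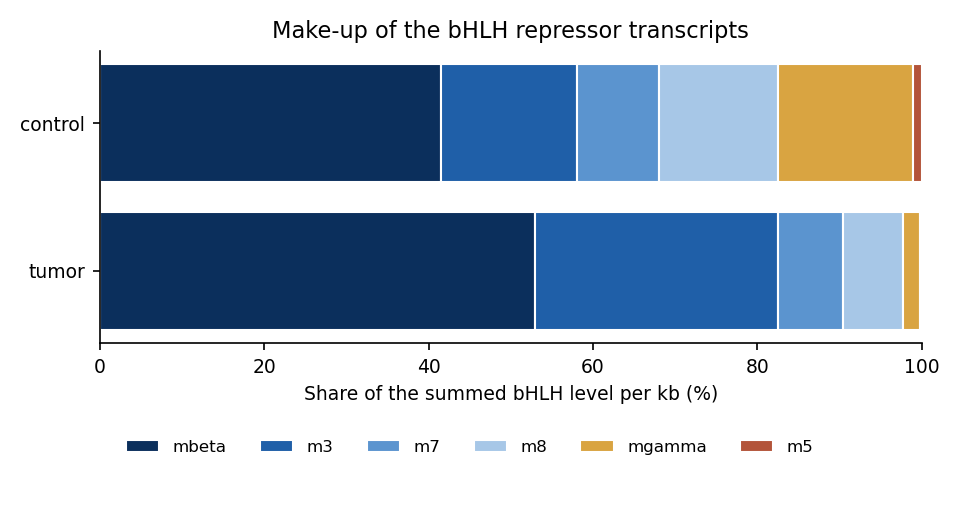
Share of each listed bHLH repressor in their summed estimated level per kb, in percent, for control (upper bar) and tumor (lower bar). The dark segments of mbeta and m3 grow from 58.0% to 82.5% together, and the yellow segment of mgamma shrinks from 16.4% to 2.10%.

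Among the listed Bearded genes of the complex the leading transcript changed. Per kb, malpha was first in control with 60.9% of the class against 37.7% for m2, and in tumor m2 was first with 58.4% against 38.7% for malpha. Despite its large rise, m6 supplied only 1.38% of the class in control and 2.82% in tumor. Over all listed members of the complex mbeta was first in both groups, with m2 moving from place 3 to place 2, and mgamma from place 5 to place 8. The spread between samples is unknown, so places of close neighbours, such as malpha (188.3 CPM per kb) and m3 (184.4 CPM per kb) in tumor, cannot be ordered.

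Read along the chromosome, the rise ran through most of the complex and differed in size between adjacent genes. At one end mdelta is not in the table and mgamma, the next gene, had the smallest log2 fold change (2.03). From mbeta through m8 every coding gene except m4 was listed, with log2 fold changes from 2.83 (m5) to 6.36 (m6) by the authors' deposited table and Kaz-m1 fitted at 0 in control. Beyond m8 lies gro, which encodes Groucho, the corepressor that the bHLH proteins recruit. It had a log2 fold change of 0.89 (adjusted p = 0.00069) in the authors' deposited table, a value below that of every member.

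Of the 10 protein-coding genes next to the complex on each side, 5 of 20 were listed, 2 higher and 3 lower. On the mdelta side only Nf1, a Ras regulator gene, was listed (log2 fold change 2.15, adjusted p = 0.0015 in the authors' deposited table). On the m8 side, beyond gro, the endosomal sorting gene Vps2 (log2 fold change -0.58), the nucleotide kinase gene Cmpk (-2.93) and the replication gene Sld5 (-1.64) were lower in the authors' deposited table. With the listed genes' summed levels made equal in both groups, Vps2 and Sld5 would be higher (1.22 and 0.17) and Cmpk still lower (-1.13). That shift leaves out tested genes that were not called, so it does not equalise library totals and may be too large.

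Some noncoding genes inside the complex were also higher. The annotation places 6 noncoding RNA genes between mdelta and m8, a set chosen after its values were seen, of which 3 were listed as higher and the other 3 (CR45037, CR45038 and CR45040) were not in the table. CR45039, between mbeta and malpha, had a mean of 1.79 CPM and a log2 fold change of 6.58 (adjusted p = 0.00067) in the authors' deposited table. CR43643, between m2 and m3, had a mean of 2.08 CPM and a log2 fold change of 6.32 (adjusted p = 0.00020) in the authors' deposited table. CR43644 beside it was fitted at 0 in control and had a mean of 0.503 CPM (adjusted p = 0.0022) in the authors' deposited table. None of these 3 listed genes shares exon bases with a coding gene of the complex, whereas all exon bases of CR45040 are shared with Kaz-m1. Of 3304 annotated noncoding RNA genes, 156 (4.72%) were in the table, of which 64.7% were higher, and their median was 1.88 on the log2 scale by the authors' deposited values.

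**Figure D4:**
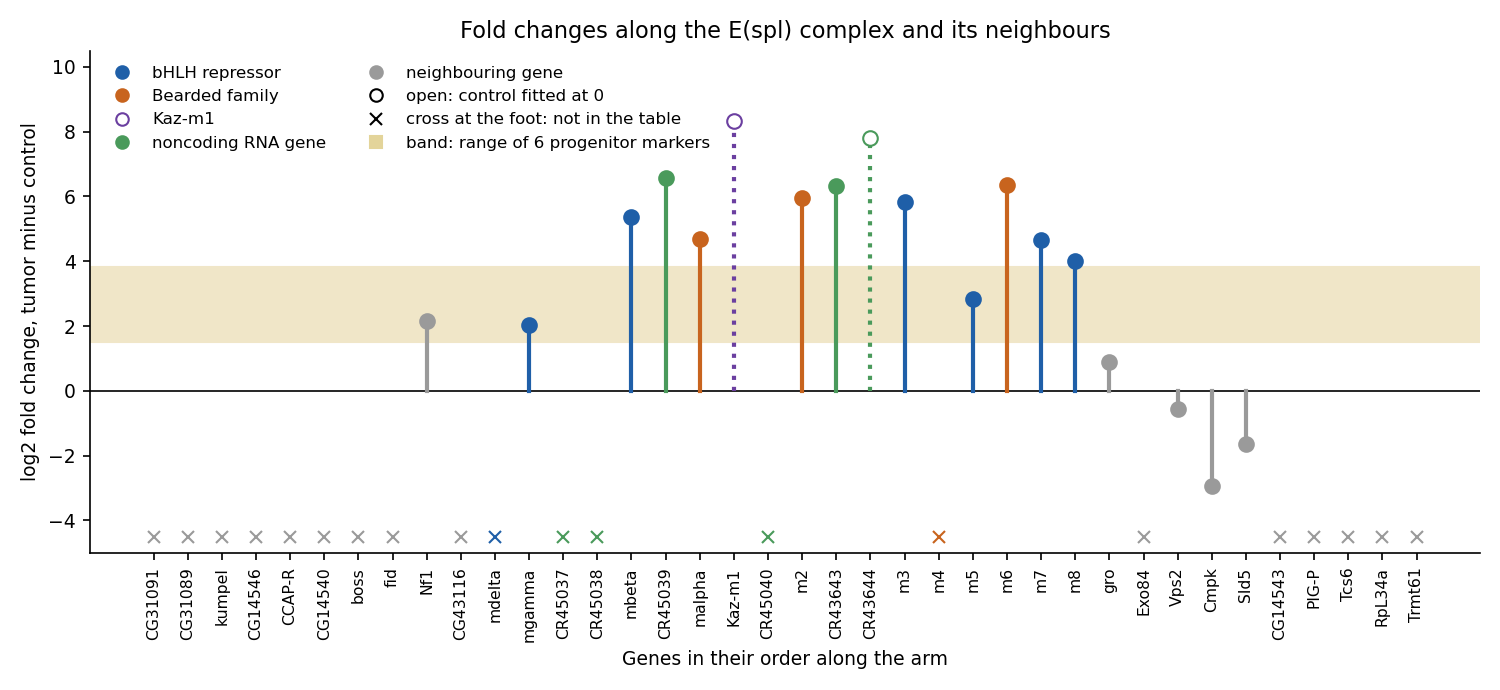
Log2 fold change (tumor minus control) of each annotated gene of the complex and of 10 protein-coding neighbours on each side, in chromosomal order and without distances. Open circles mark a control level fitted at 0, where the plotted fitted value is no measure of the fold, crosses at the foot mark genes not in the table, and the band spans the 6 imaginal progenitor markers (1.499 to 3.81). Mbeta, malpha, m2, m3, m6, m7 and m8 stand above the band, mgamma and m5 within it, and gro below it.

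The gene mixture in the libraries changed along with the members. Markers of salivary secretory cells were lower in 7 of 7 listed genes of 8 (summed estimate 237472 CPM in control and 95.7 CPM in tumor; fkh was not in the table), and fat body markers in 5 of 5 (136376 and 1026 CPM). Imaginal progenitor markers were higher in 6 of 6, with log2 fold changes from 1.499 (Scr) to 3.81 (hdc), a median of 2.44 and a summed estimate of 163.3 and 967.1 CPM, by the authors' deposited table. In bulk RNA, fewer cells of a type and less RNA per cell cannot be told apart. Set against these markers, mgamma (2.03) and m5 (2.83) lay within their range, and m8, malpha, m7, mbeta, m3, m2 and m6 lay above their highest value. Leaving out genes fitted at 0, 4.04% of all tested genes were that far up. With 2.44 subtracted, mgamma alone among the members fell below 0 (-0.41).

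Markers of other cells that can use E(spl) genes moved too. Neural stem cell markers were higher in 4 of 4 listed genes of 6 (median log2 fold change 3.26 by the authors' deposited table, summed estimate 6.99 and 71.5 CPM), while the defining genes wor and ase were not in the table. Hemocyte markers were higher in 6 of 6 listed of 7 (median 5.403 by the authors' deposited table, summed estimate 28.2 and 1473 CPM; srp was not in the table), and tracheal markers in 6 of 6 (median 2.98 by the authors' deposited table, 144.7 and 755.4 CPM). Muscle precursor markers were divided, with Him, zfh1 and htl higher, Mef2 lower and twi not in the table (152.6 and 97.2 CPM summed), and neuron markers likewise, with 2 higher and 1 lower of 5 (160.8 and 67.4 CPM summed). No listed gene of these marker lists was fitted at 0 in either group. Their part in the members' rise was not tested.

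**Figure D5:**
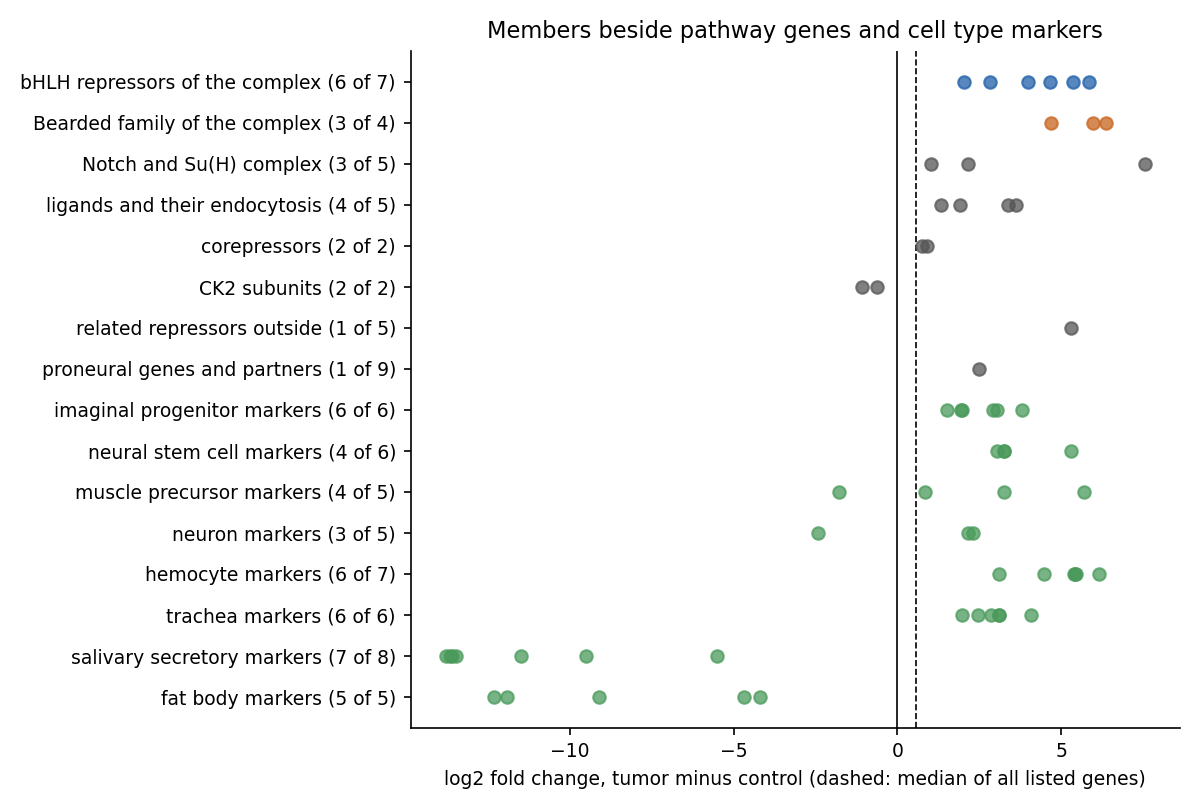
Log2 fold change (tumor minus control) of each listed gene in the complex's classes, the pathway lists and the cell type marker lists, with the number listed of the number in each list in brackets. The dashed line marks the median of all listed genes (0.57). The corepressor genes lie close to it and the bHLH and Bearded genes far to its right.

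Most genes whose products work with the E(spl) proteins had smaller log2 fold changes than most members, a difference that was not tested. In the activating complex, N was higher by 7.56 on the log2 scale (adjusted p = 1.07e-05) in the authors' deposited table, but reads of the NICD transgene can be counted there. Su(H), which carries NICD to DNA, had a log2 fold change of 1.02 (adjusted p = 0.0027) and mam, which encodes Mastermind, 2.17 (adjusted p = 0.00016) in the authors' deposited table. The antagonist gene H and the coregulator gene Bx42 were not in the table. The corepressor genes gro and CtBP had log2 fold changes of 0.89 and 0.75 in the authors' deposited table, and with the progenitor median subtracted both, and Su(H), turn negative (-1.55, -1.69 and -1.42), as does mam (-0.27).

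Of the subunit genes of the kinase CK2, which phosphorylates m5, m7 and m8, CkIIalpha and CkIIbeta were lower. A further one, CkIIbeta2, was higher (log2 fold change 3.87, mean 0.60 log2 CPM in the authors' deposited table). It was added after its values were seen. CkIIalpha had a log2 fold change of -1.10 (adjusted p = 0.00026) and CkIIbeta of -0.64 (adjusted p = 0.0047) in the authors' deposited table. These directions flip to 0.71 and 1.16 when the listed genes' summed levels are made equal, a shift that leaves out tested genes not called.

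On the signal-sending side Bearded proteins act on Neuralized. The gene neur had a log2 fold change of 1.90 (adjusted p = 0.00026) in the authors' deposited table, and mib1, another ubiquitin ligase gene for Notch ligands, 1.32 (adjusted p = 0.00042), and both turn negative with the progenitor median subtracted (-0.54 and -1.12). The ligand genes Dl and Ser, with log2 fold changes of 3.63 and 3.38 in the authors' deposited table, kept a positive sign (1.19 and 0.94). The endocytosis gene lqf was not in the table.

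Close relatives of the members outside the complex were mostly not listed. Of 6 Bearded-family genes elsewhere (Brd, Tom, Ocho, BobA, BobB and BobC) 0 were in the table. BobB and BobC were also found in no name table, so their absence may be one of naming. In the complex 3 of 4 were listed, and 65.6% of all tested genes were. How many of the genes elsewhere were tested is not known, so these counts are not compared. Of 5 related repressor genes, h, Side, Hey and cwo were not in the table, and dpn, a repressor of neural stem cells, was higher by 5.30 on the log2 scale (adjusted p = 4.22e-05) in the authors' deposited table, from an estimated 0.189 to 7.44 CPM. Absence from the table means not called or not tested, so it does not show that these genes stayed level.

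The proneural genes that E(spl) repressors are known to silence were likewise not listed. Of 9 proneural genes and partners, ac, sc, l(1)sc, ase, ato, amos, cato and the partner gene da were not in the table. They were not called or not tested, so no direction of change is known for them. The 1 listed gene was emc, which encodes a helix-loop-helix protein without a basic region that sequesters proneural proteins. Its estimated level was 94.1 CPM in control against 528.7 CPM in tumor, with a log2 fold change of 2.49 (adjusted p = 0.00021) in the authors' deposited table, close to the progenitor markers' median.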

How the data were processed

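The submitters' processing notes name featureCounts and DESeq2 without versions. Aligner, build, annotation, strand setting and filters were not stated in the sources used here. Each row of the authors' deposited table is 1 called gene, with a shrunken log2 fold change, an unshrunk one (a score here, since it exceeds 100 in size in 43 genes with a group fitted at 0), a mean log2 CPM over all libraries, and p-values before and after adjustment. The authors' sheet of other call numbers gives 9384 tested genes. Its headings "log 1.2" and "log 2" are read as minimum folds. The calls under "log 1.2" match the listed genes in number, with 3187 higher and 2969 lower. The column names, per the file headers, match edgeR's glmTreat, which tests against a minimum fold, and not DESeq2, so the tool behind the values is uncertain and the authors' p-values may refer to a fold beyond 1.2.

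With M the mean CPM and r the fold, control was estimated as 2M/(1 + r) and tumor as r times that. Over the genes in the table the control estimates sum to 1224976 CPM and the tumor estimates to 351471 CPM. Scaling beyond library totals may have entered the values, or the formula may not hold for them. The formula takes M as the plain mean of the control and tumor levels. Whether the authors' mean CPM and shrunken fold obey it was not tested. Transcript lengths, gene order and exon overlaps came from the BDGP6 annotation (version 54, Ensembl release 115), which may differ from the one the authors used, and its coordinates are left out. Python 3.11.15 and pandas 2.3.3 were used.

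The members, lists and tests were chosen with earlier results of these data known. Of 92 list symbols 90 were matched. Genes named are the members, the other 2 genes of the complex, the pathway lists and markers, listed neighbours, and CkIIbeta2, chosen after its values were seen. The promoter and protein comparisons that had been planned were not made.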

Additional observations from a re-analysis of the deposited data

How the results depend on the processing

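All 10 members stayed higher with an adjusted p below 0.01, at least 2-fold or unshrunk (both counting Kaz-m1 by its fitted value). The same held with the median of all listed genes subtracted, or equal summed levels of the listed genes (a shift of 1.80 on the log2 scale). With the progenitor median subtracted 9 stayed higher. Unshrunk folds and equal sums could not have turned a sign. The unshrunk folds of members above 0 in control were nearly the same, and the shift raises every fold. No conclusion is drawn from these settings. A filter at the lower quartile of mean level left 6, by its construction. The bHLH median of 4.33 became 4.12 as a mean, 5.01 above that quartile, 1.89 less the progenitor median and 6.13 with equal sums. The Bearded median with Kaz-m1, 6.16 wherever Kaz-m1 lies above m6, became 3.72 less the progenitor median and 7.96 with equal sums. Above that quartile only malpha and m2 remained of these genes, with a median of 5.32. Values were taken as moved beyond 0.2 on the log2 scale, or 10 points for shares, and the joint share of mbeta and m3 did not move. Most settings could hardly move it. Every listed repressor has a single annotated transcript, unshrunk folds were nearly the same, and a common shift with the mean CPM kept scales the genes almost alike. No conclusion is drawn from that stability. Less the progenitor median, the medians of the corepressors (-1.62) and the Notch and Su(H) complex (-0.27) turned negative. With equal sums the median of CkIIalpha and CkIIbeta turned positive (0.93). Subtracting progenitor markers, equalising sums, the level filter on class medians, and shares without length division or with unshrunk or shifted folds were chosen after the data were examined. No paired analysis was possible because the table holds no value per sample, and for the same reason no replicate was left out. Motif alternatives were not run. Depth is unknown, and m5, m6 and Kaz-m1 rest on the lowest control levels.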
